A study of Homo sapiens with 4 samples.

Results

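The kinetochore and spindle checkpoint module holds 33 genes whose products build the kinetochore or carry its checkpoint signal. The 33 symbols were taken as a list by function, and no measured value entered the rule. Earlier results of these data were, however, known when the list was chosen. All 33 were listed in each of the 4 deposited count tables, which held 18131 gene symbols in any table and 15636 in every table. Levels are given as UMIs in every 1000000 UMIs of a library (CPM), and 28 members averaged 10 CPM or more over the 4 libraries. The other 5 were MAD1L1, CENPC, CENPO, ZW10 and INCENP. The members nearest that limit were MAD1L1, CENPC and CENPO below it, with means of 8.17, 9.71 and 9.96 CPM, and SPC24, TTK and CENPL above it, with means of 10.3, 12.5 and 13.3 CPM.

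The kinetochore is the protein assembly on each centromere that attaches a chromosome to microtubules of the spindle. The histone H3 variant CENPA marks the centromere, the inner CENP proteins sit on it, and the MIS12, NDC80 and SKA complexes reach outward to the microtubule. A kinetochore without attachment recruits the kinases TTK and BUB1 and the MAD and BUB proteins, which hold back the anaphase-promoting complex until every chromosome is attached. Taxanes stabilise microtubules and disturb attachment, and many of these genes are transcribed mainly in S phase, G2 and mitosis of dividing cells.

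The cells were HCC1143, an established human line from a triple-negative breast carcinoma, profiled as single cells with the 10x Chromium system, which tags poly(A) RNA with a cell barcode and a unique molecular identifier (UMI). Of the 4 groups, DMSO 24 h and DMSO 72 h held cells in the solvent DMSO alone for 24 h or 72 h, and paclitaxel 24 h and paclitaxel 72 h held cells in 1 nM paclitaxel for the same times. In all 4 groups the cells were plated in 6-well dishes and had 24 h to attach before solvent or drug was added. Each group was 1 library of 1 line, so no difference below has a replicate check, no test across samples exists, and every ratio compares 1 library with 1 other library. Intervals are exact 95% intervals and cover counting error only. Where 4 values are given in library order, they stand for solvent and then drug at 24 h, followed by solvent and then drug at 72 h.

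The libraries had 520 to 1101 kept cells, 3180 in all, with 34850724 to 72024235 summed UMIs and medians of 54864 to 59670 UMIs per cell, so that the upper limit a count of 0 leaves is 0.0417 to 0.0861 CPM. Epithelial markers were listed in all tables for 5 of 5 genes and basal markers for 4 of 4, and of the receptor genes ESR1 was at most 0.66 CPM, PGR was not listed and ERBB2 was at 20.4 to 23.5 CPM. The immune list had 1 of 4 genes in every table, with a sum of 5.5 to 6.29 CPM in 3 libraries and 20.2 CPM in paclitaxel 72 h. That sum was nearly all CD68, while CD3D was not listed and PTPRC and CD79A were each listed at 0.287 CPM in paclitaxel 72 h alone. Stromal and endothelial lists had 1 of 4 and 1 of 3 genes in every table, with sums of at most 13.9 and 1.66 CPM, and the part of any of these markers in the results was not tested. Ribosomal protein genes took 25.4% of UMIs in DMSO 24 h, 30.9% in paclitaxel 24 h, 38.2% in DMSO 72 h and 27.0% in paclitaxel 72 h, which shifts every other gene's CPM. For that reason ratios between libraries are given as relative log2 ratios: the log2 ratio of CPM less the same ratio of the median gene, taken over genes that averaged 10 CPM or more in the pair of libraries. The subtracted medians were -0.14 for paclitaxel over DMSO at 24 h, 0.28 for paclitaxel over DMSO at 72 h, -0.29 for DMSO at 72 h over 24 h and 0.13 for paclitaxel at 72 h over 24 h.

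GENCODE release 29 (GRCh38) gave each of the 33 members 1 locus, on 16 chromosomes in all. Exons of 3 members overlap another gene on the same strand (BUB1B with BUB1B-PAK6, CENPA with SLC35F6, PMF1 with PMF1-BGLAP) and exons of 7 overlap a gene on the other strand (NUF2, SPC24, CENPL, CENPN, CENPO, MIS12 and MAD2L1). The sources used here do not say whether the counting used strand, so the values of the 7 members are uncertain to that extent. For the 3 members overlapped on the same strand, strand cannot tell the genes apart, so their values are uncertain under either setting. A copy by name (BUB1P1, BUB3P1, CENPCP1, SKA2P1) is annotated for BUB1, BUB3, CENPC and SKA2, and none of these copies was listed in the tables.

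The stretches around the start sites are shown here because the module is known for shared promoter elements, among them the cell cycle genes homology region TTTGAA, the NF-Y box CCAAT and the E2F-type element TTTNGCGC. RefSeq promoters on GRCh38.p14, from 250 bases before to 50 after the start, were given for 28 of the 33 members (not for BUB3, TTK, CENPH, CENPL and CENPM). Both strands were searched, and TTTGAA and CCAAT can overlap by their shared letters on opposite strands. TTTGAA was found in 16 of 28 members (57.1%) and in 18.2% of the promoters of 27305 genes. CCAAT was found in 18 of 28 members (64.3%) against 39.7% of all, and at least 2 CCAAT in 14 of 28 against 12.9% of all. TTTNGCGC was found in 1 of 28, CENPC, against 2.17% of all. A match is a run of letters in this window and was not tested for binding. The windows below are 30 bases long, each read 5′ to 3′ on the strand named, and the capitals mark TTTGAA. They were chosen to show the element in 1 or more members of the checkpoint, NDC80, centromere, passenger and SKA groups.
BUB1B (chr15:40161034-40161063, plus strand): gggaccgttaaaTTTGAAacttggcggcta
MAD2L1 (chr4:120066807-120066836, minus strand): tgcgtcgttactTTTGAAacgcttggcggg
NDC80 (chr18:2571542-2571571, minus strand): aagccgttcgaaTTTGAAattctccgccgg
NUF2 (chr1:163321958-163321987, plus strand): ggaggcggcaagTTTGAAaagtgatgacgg
SPC25 (chr2:168890416-168890445, minus strand): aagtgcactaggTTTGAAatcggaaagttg
CENPA (chr2:26786026-26786055, plus strand): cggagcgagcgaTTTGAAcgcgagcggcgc
CENPN (chr16:81007205-81007234, plus strand): gcaattggtggcTTTGAAggcgcggcgagc
INCENP (chr11:62123989-62124018, plus strand): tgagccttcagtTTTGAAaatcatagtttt
CDCA8 (chr1:37692481-37692510, plus strand): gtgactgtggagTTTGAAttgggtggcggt
SKA3 (chr13:21176538-21176567, plus strand): tcccgccactagTTTGAAtctcggcgccgg
The NDC80 and SKA3 windows are printed on the strand opposite to the gene, where the element reads TTTGAA; the others follow the gene. In CDCA8 the element runs into an inverted CCAAT box, whose letters attgg begin at the last A of the element.

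Summed over the 33 members, the module made up 1701 CPM of the DMSO 24 h library, 1293 CPM of paclitaxel 24 h, 932 CPM of DMSO 72 h and 933 CPM of paclitaxel 72 h. DMSO 24 h was thus the highest of the 4, paclitaxel 24 h lay between, and the libraries at 72 h were nearly equal. Member by member, DMSO 24 h was the highest library for 27 of 33, paclitaxel 24 h for BUB1, BUB3 and NUF2, and paclitaxel 72 h for MAD1L1, CENPQ and MIS12. The lowest library was DMSO 72 h for 19 members, paclitaxel 72 h for 13 and paclitaxel 24 h for CENPC. These orders, here and by gene below, are of CPM, which the ribosomal share of a library shifts. A summed CPM does not separate fewer expressing cells from less RNA per cell; values by cell class follow further on.

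**Figure D1:**
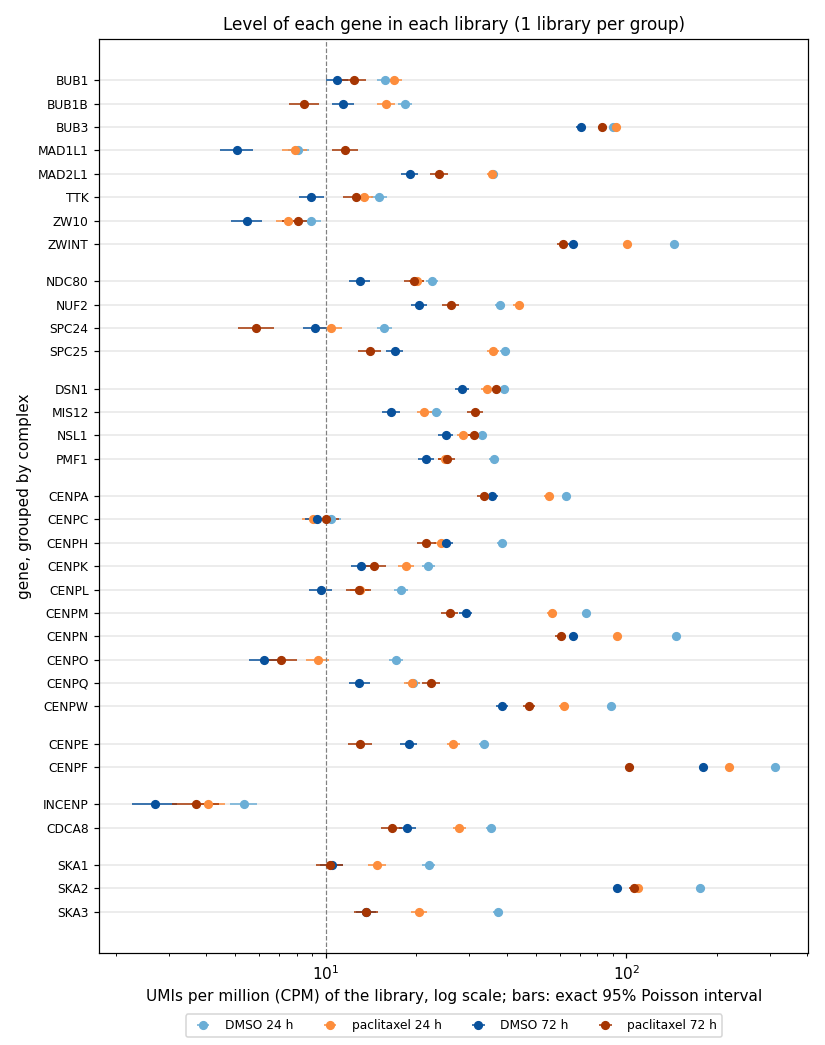
Level of each of the 33 genes in each of the 4 libraries, in CPM on a log axis, grouped by complex; points are libraries, bars are exact 95% Poisson intervals and the dashed line marks 10 CPM. DMSO 24 h is the rightmost point for 27 of 33 genes, while MAD1L1, CENPQ and MIS12 are highest in paclitaxel 72 h.

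The comparison of times asks how the module moved over the added days of culture with solvent or with drug. From 24 h to 72 h in DMSO, all 29 members that averaged 10 CPM or more over those libraries had a relative log2 ratio below 0, with a median of -0.53, where the median of all genes is 0 by construction. Of the 29, 13 were at least 1.5-fold lower and 0 were at least 1.5-fold higher. Among 8077 genes compared in the same way, 9.89% were lower and 13% were higher by that measure. In paclitaxel from 24 h to 72 h, 25 of 27 members were below 0, the median was -0.57, and again 13 were lower and 0 higher, against 4.93% lower and 7.95% higher among 8335 genes. The count of 13 in DMSO depends on the centring: it was 24 with CPM alone and 21 with TMM factors. The direction of the median was the same. With CPM alone the median gene was itself at -0.29, and the shares of all genes under either scaling are not given here. The members share their libraries and are not replicates of a condition.

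Both comparisons of times counted the same 9 members as lower: MAD2L1, ZWINT, NUF2, SPC25, CENPM, CENPN, CDCA8, SKA1 and SKA3. The share of all genes lower in both, or in DMSO or paclitaxel alone, was not computed. The overlap is thus a list of names and no result about the module. In DMSO alone CENPL, CENPO, CENPW and SKA2 were past 1.5-fold, and in paclitaxel alone BUB1B, CENPA, CENPE and CENPF. In paclitaxel CENPO, at -0.54, was under the 10 CPM minimum and not compared, while CENPW was at -0.51, CENPL at -0.14 and SKA2 at -0.18. In DMSO CENPA, CENPE and CENPF were close to the 1.5-fold limit, at -0.53, -0.55 and -0.50, and BUB1B was at -0.40. Whether those members differ between DMSO and paclitaxel cannot be tested with 1 library per group. The other 15 members were counted in no comparison of times or drug. Of these, MAD1L1 (0.92) and SPC24 (-0.93) for paclitaxel over DMSO at 72 h, SPC24 with time in paclitaxel (-0.96) and INCENP with time in DMSO (-0.70) were past 1.5-fold on the relative log2 scale, but under the 10 CPM minimum there.

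The comparison of paclitaxel with DMSO asks how the drug at 1 nM moved the module at a given time. At 24 h, 22 of 29 members were below 0 with a median of -0.20, and SKA3 and CENPO were the 2 counted as lower, against 1.26% of 8096 genes; 0 members were higher, against 6.3% of genes. At 72 h the median was -0.09 and 16 of 26 members were below 0, but the median was 0.19 when nothing was subtracted, so its direction follows the centring. CENPF and CENPE were the 2 members lower at 72 h, against 7.93% of 8306 genes, and MIS12 was the 1 member higher, against 11.1%. With CPM alone, 1 member was lower and 3 were higher at 72 h, and the shares of all genes by that measure are not given here. With the median subtracted, the counts of members lower and higher at 72 h were near or below the shares of all genes and are no result about the module.

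**Figure D2:**
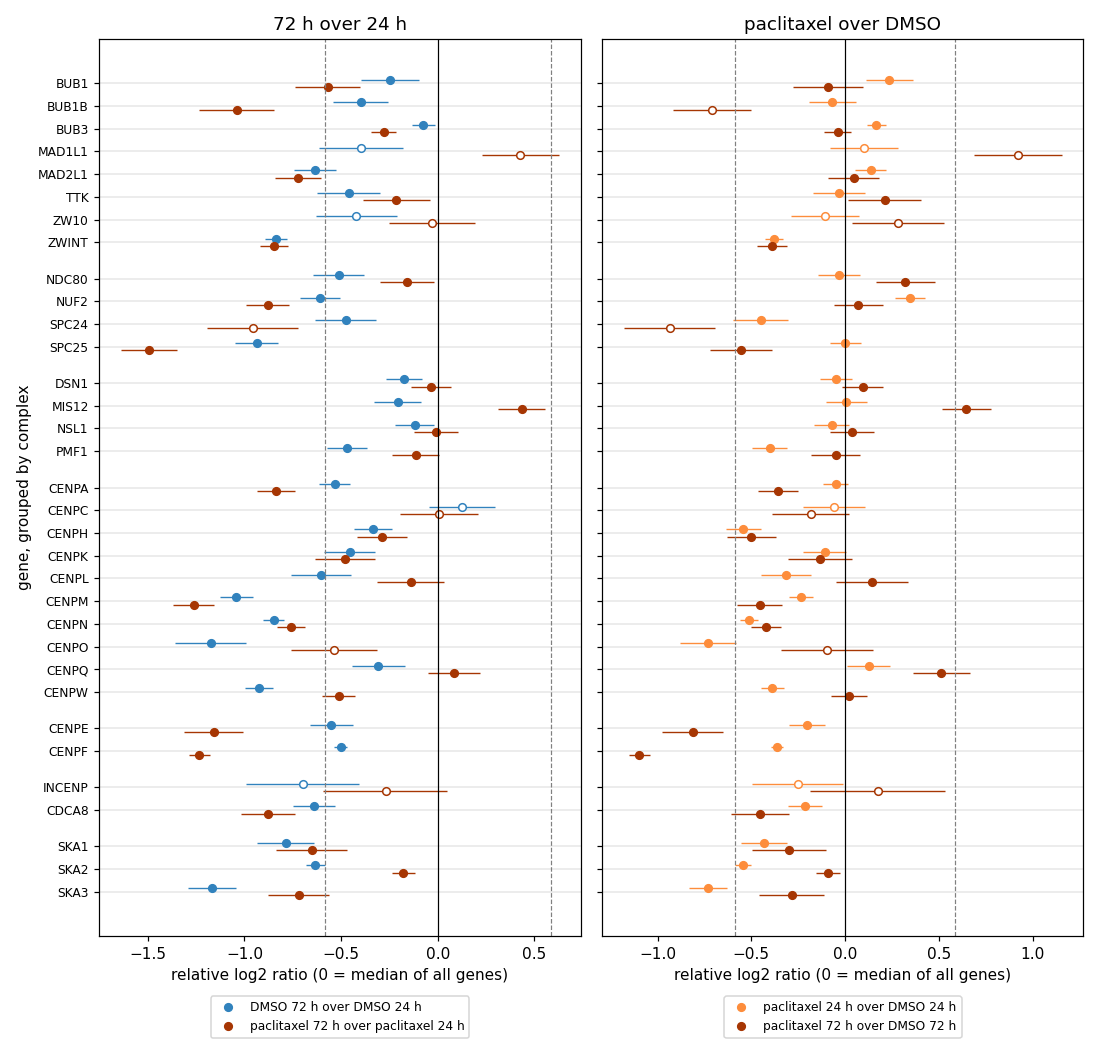
Relative log2 ratio of each gene for 72 h over 24 h (left) and for paclitaxel over DMSO (right), with exact 95% ratio intervals; 0 is the median of all genes, dashed lines mark 1.5-fold, and open points are genes under 10 CPM on average in that pair of libraries. All 29 filled points of DMSO 72 h over DMSO 24 h lie below 0, and MIS12 stands at 0.65 and CENPF at -1.10 for paclitaxel over DMSO at 72 h.

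Among the checkpoint genes, ZWINT, the ZW10-interacting protein that links the outer kinetochore to the checkpoint, had the widest range: its highest library was 2.35 times its lowest. It was measured at 144 CPM in DMSO 24 h, 101 in paclitaxel 24 h, 66.2 in DMSO 72 h and 61.3 in paclitaxel 72 h. Each library at 72 h was below each at 24 h, and the relative log2 ratios with time were -0.84 in DMSO (-0.89 to -0.78) and -0.85 in paclitaxel (-0.92 to -0.77). MAD2L1, the MAD2 protein that joins the inhibitory checkpoint complex, had 35.9 CPM in DMSO 24 h, 35.8 in paclitaxel 24 h, 19.0 in DMSO 72 h and 23.8 in paclitaxel 72 h. It differed little between drug and solvent at 24 h, with a relative log2 ratio of 0.13 (0.05 to 0.22), and fell with time by 0.63 in DMSO and by 0.72 in paclitaxel on the relative log2 scale.

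BUB1B, which encodes the checkpoint protein BUBR1, stood at 18.3 CPM in DMSO 24 h, 15.9 in paclitaxel 24 h, 11.4 in DMSO 72 h and 8.46 in paclitaxel 72 h. Its lowest library was paclitaxel 72 h, and its relative log2 ratio with time was -1.04 in paclitaxel (-1.23 to -0.85) and -0.40 in DMSO (-0.54 to -0.26). BUB1, a kinase that recruits other checkpoint proteins, was at 15.7 CPM in DMSO 24 h, 16.8 in paclitaxel 24 h, 10.9 in DMSO 72 h and 12.4 in paclitaxel 72 h. The 2 values at 72 h were below those at 24 h, and no ratio of BUB1 passed 1.5-fold. TTK, the MPS1 kinase that starts checkpoint signalling, read 15.0 CPM in DMSO 24 h, 13.4 in paclitaxel 24 h, 8.96 in DMSO 72 h and 12.6 in paclitaxel 72 h. DMSO 72 h alone stood low for TTK.

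BUB3, the partner that docks BUB1 and BUBR1 on the kinetochore, moved the least of the checkpoint genes: 90.5 CPM in DMSO 24 h, 92.3 in paclitaxel 24 h, 70.5 in DMSO 72 h and 83.2 in paclitaxel 72 h. Its relative log2 ratios with time were -0.08 in DMSO and -0.28 in paclitaxel. MAD1L1, the MAD1 anchor of MAD2 at unattached kinetochores, and ZW10, which brings dynein to the kinetochore, had means under 10 CPM. MAD1L1 read 8.11, 7.89, 5.06 and 11.6 CPM in library order, with its highest library in drug at 72 h. Its relative log2 ratio of paclitaxel over DMSO at 72 h was 0.92 (0.69 to 1.15), not counted because of the 10 CPM minimum. ZW10 lay between 5.46 and 8.91 CPM.

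The NDC80 complex, which binds the microtubule itself, split into members that fell to different depths. SPC25 had 39.5 CPM in DMSO 24 h and 36.0 in paclitaxel 24 h, then 16.9 in DMSO 72 h and 14.0 in paclitaxel 72 h. In paclitaxel its relative log2 ratio with time, -1.49 (-1.64 to -1.35), was the lowest of any member in any of the 4 comparisons, beside -0.94 in DMSO. SPC24, its partner in the inner end of the complex, went from 15.7 CPM in DMSO 24 h to 10.4 in paclitaxel 24 h, 9.24 in DMSO 72 h and 5.88 in paclitaxel 72 h. The mean of the paclitaxel libraries was under 10 CPM, so the relative log2 ratio of -0.96 with time in paclitaxel was not counted.

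NUF2, a microtubule-binding subunit, read 38.0 CPM in DMSO 24 h, 43.8 in paclitaxel 24 h, 20.4 in DMSO 72 h and 26.1 in paclitaxel 72 h. It was the highest member for paclitaxel over DMSO at 24 h, with 0.34 (0.27 to 0.42), and it fell with time in both. The call in DMSO, at -0.61, is close to the 1.5-fold limit: it was -0.52 with each cell weighted alike and -0.54 without the 5% of cells with most UMIs. NDC80, the subunit that gives the complex its name, had 22.6, 20.1, 13.0 and 19.7 CPM in library order. DMSO 72 h was its one low library, and the relative log2 ratio with time was -0.51 in DMSO and -0.16 in paclitaxel.

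Genes of the MIS12 complex, which joins the inner kinetochore to NDC80, changed least with time as a group. The median over its 4 subunits was -0.19 in DMSO and -0.02 in paclitaxel on the relative log2 scale, and 0 of 4 were past 1.5-fold in either. Among all genes 9.89% were lower and 13% higher in DMSO, and 4.93% and 7.95% in paclitaxel. A count of 0 of 4 is near those shares and is no result about the complex. DSN1 had 39.2, 34.4, 28.4 and 36.8 CPM and NSL1 33.1, 28.6, 25.0 and 31.2 CPM in library order. PMF1 had 36.3 CPM in DMSO 24 h and 25.0, 21.6 and 25.3 CPM in paclitaxel 24 h, DMSO 72 h and paclitaxel 72 h. For DSN1 and NSL1 the low library by CPM was DMSO 72 h, while for PMF1 the DMSO 24 h library stood above the other 3. The relative log2 ratios of DSN1 and NSL1 for paclitaxel over DMSO at 72 h were 0.09 (-0.02 to 0.20) and 0.04 (-0.08 to 0.15).

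MIS12 (chr17:5486285-5490814, plus strand) was the compared member farthest above the module in paclitaxel 72 h. It read 23.3 CPM in DMSO 24 h, 21.2 in paclitaxel 24 h, 16.5 in DMSO 72 h and 31.4 in paclitaxel 72 h. Paclitaxel 72 h stood above the other libraries, with a relative log2 ratio of 0.65 over DMSO 72 h (0.51 to 0.78) and of 0.43 over paclitaxel 24 h (0.31 to 0.55). DERL2, which overlaps MIS12 on the other strand, had 37.1, 37.9, 25.2 and 58.5 CPM in the same order, and was also highest in paclitaxel 72 h. Its part in the MIS12 values was not tested.

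CENPA, the histone variant that marks the centromere, was at 62.7 CPM in DMSO 24 h, 55.1 in paclitaxel 24 h, 35.6 in DMSO 72 h and 33.7 in paclitaxel 72 h. Both libraries at 72 h were low, with relative log2 ratios with time of -0.53 in DMSO and -0.84 in paclitaxel. SLC35F6, whose exons overlap those of CENPA on the same strand, read 33.6, 24.9, 23.3 and 25.8 CPM in the same order.

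CENPC, which binds the CENPA nucleosome and carries the inner kinetochore, was nearly level: its highest library, DMSO 24 h at 10.4 CPM, was 1.15 times its lowest, paclitaxel 24 h at 9.08 CPM. That was the narrowest range of any of the 33 members. CENPM (chr22:41938721-41947164, minus strand), CENPH and CENPK belong to 1 subcomplex of the constitutive centromere network. CENPM had 73.2 CPM in DMSO 24 h, 56.6 in paclitaxel 24 h, 29.2 in DMSO 72 h and 25.8 in paclitaxel 72 h. With time the relative log2 ratio was -1.04 in DMSO (-1.13 to -0.96) and -1.26 in paclitaxel (-1.37 to -1.16). CENPH, by contrast, read 38.6 CPM in DMSO 24 h against 24.1 in paclitaxel 24 h, 25.1 in DMSO 72 h and 21.6 in paclitaxel 72 h: DMSO 24 h alone stood high. CENPK had 21.9, 18.5, 13.1 and 14.5 CPM in library order and passed 1.5-fold in no comparison.

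CENPN and CENPL bind each other, and CENPN reads the CENPA nucleosome. CENPN had 146 CPM in DMSO 24 h, 93.3 in paclitaxel 24 h, 66.6 in DMSO 72 h and 60.4 in paclitaxel 72 h, and its 2 relative log2 ratios with time were -0.85 in DMSO and -0.76 in paclitaxel. CMC2, which overlaps CENPN on the other strand, read 76.8, 60.1, 40.6 and 68.5 CPM in library order. CENPL had 17.8, 13.0, 9.61 and 12.9 CPM in library order, with DMSO 72 h lowest and a relative log2 ratio with time of -0.60 in DMSO and -0.14 in paclitaxel.

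CENPO (chr2:24793136-24822376, plus strand) and CENPQ (chr6:49463378-49493107, plus strand), which share a subcomplex, moved apart. CENPO read 17.1 CPM in DMSO 24 h, 9.39 in paclitaxel 24 h, 6.24 in DMSO 72 h and 7.09 in paclitaxel 72 h, so that DMSO 24 h stood above the rest. The relative log2 ratio of CENPO was -1.17 with time in DMSO (-1.36 to -0.99), the lowest of the 29 members there, and -0.73 for paclitaxel over DMSO at 24 h. PTRHD1 and ADCY3, which overlap CENPO on the other strand, had 57.4 to 77.5 and 10.1 to 14.9 CPM. CENPQ had 19.5, 19.3, 12.9 and 22.4 CPM in library order, with paclitaxel 72 h highest and DMSO 72 h lowest. Its relative log2 ratio of paclitaxel over DMSO at 72 h was 0.51 (0.36 to 0.67), which did not pass 1.5-fold over all genes but lay past 1.5-fold above the module's median. CENPW, a histone-fold partner of CENPT, read 89.1 CPM in DMSO 24 h, 61.9 in paclitaxel 24 h, 38.5 in DMSO 72 h and 47.5 in paclitaxel 72 h. It fell by 0.92 with time in DMSO and by 0.51 in paclitaxel on the relative log2 scale.

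CENPE, a kinesin that carries chromosomes to the spindle's middle, and CENPF, a large coiled-coil protein of the outer kinetochore, were the 2 members lower in paclitaxel than in DMSO at 72 h. CENPF (chr1:214603195-214664588, plus strand) stood at 311 CPM in DMSO 24 h, 220 in paclitaxel 24 h, 180 in DMSO 72 h and 102 in paclitaxel 72 h. The highest library was 3.04 times the lowest, the widest range of the 33 members, and the 4 intervals did not meet. Its relative log2 ratio of paclitaxel over DMSO was -0.36 at 24 h (-0.39 to -0.33) and -1.10 at 72 h (-1.15 to -1.04). CENPE (chr4:103105806-103198409, minus strand) had 33.6 CPM in DMSO 24 h, 26.6 in paclitaxel 24 h, 18.9 in DMSO 72 h and 13.0 in paclitaxel 72 h. The order of the libraries was the order of CENPF, and the relative log2 ratio of paclitaxel over DMSO was -0.20 at 24 h and -0.81 at 72 h (-0.98 to -0.65). With nothing subtracted the CENPE value at 72 h was -0.53, short of 1.5-fold.

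Of the chromosomal passenger genes, CDCA8, the borealin subunit that brings the complex to the centromere, had 35.5 CPM in DMSO 24 h, 27.8 in paclitaxel 24 h, 18.7 in DMSO 72 h and 16.6 in paclitaxel 72 h. Both libraries at 72 h were below both at 24 h, and the relative log2 ratios with time were -0.64 in DMSO and -0.88 in paclitaxel. INCENP, the scaffold of the complex, was the lowest-counted member, at 2.70 to 5.33 CPM, with DMSO 24 h highest.

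The SKA complex holds NDC80 on a moving microtubule end. All 3 of its genes were past 1.5-fold lower with time in DMSO and 2 of 3 in paclitaxel. Among all genes, 9.89% were lower with time in DMSO and 4.93% in paclitaxel. SKA3 (chr13:21153595-21176602, minus strand) read 37.4 CPM in DMSO 24 h, 20.4 in paclitaxel 24 h, 13.7 in DMSO 72 h and 13.6 in paclitaxel 72 h. For SKA3 the relative log2 ratio was -1.17 with time in DMSO (-1.29 to -1.04), -0.72 in paclitaxel, and -0.73 for paclitaxel over DMSO at 24 h (-0.83 to -0.63), the lowest of the 29 members in that last comparison. SKA1 had 22.0, 14.8, 10.5 and 10.3 CPM in library order. Its call with time in paclitaxel, at -0.65, was -0.52 with nothing subtracted. SKA2 read 175 CPM in DMSO 24 h, 109 in paclitaxel 24 h, 92.7 in DMSO 72 h and 106 in paclitaxel 72 h, with DMSO 24 h alone high. Its relative log2 ratio with time was -0.63 in DMSO and -0.18 in paclitaxel, and the first was -0.51 when a minimum of 50 CPM was set for all genes.

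Members past 1.5-fold from the module's own median were counted as departing from its common change. For paclitaxel over DMSO at 24 h there were 0 below and 0 above. At 72 h, of 26 members, CENPF and CENPE lay below and CENPQ and MIS12 above. With time in DMSO, of 29, CENPO and SKA3 lay below and 0 above. With time in paclitaxel, of 27, SPC25, CENPM, CENPF and CENPE lay below and CENPQ and MIS12 above. Of all genes, 7.93% were 1.5-fold below and 11.1% above their own median at 72 h. Those shares were 9.89% and 13% with time in DMSO, and 4.93% and 7.95% with time in paclitaxel. The members' counts at 72 h and with time in DMSO were near or below such shares. So was the count above the module's median with time in paclitaxel, and none of these is a result about the module. The comparisons at 72 h and with time in paclitaxel share the paclitaxel 72 h library, so CENPE, CENPF, CENPQ and MIS12 standing out in both is not independent support.

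A cell with at least 1 UMI of MKI67, which encodes the Ki-67 protein of cycling cells, was counted as a cell with MKI67. After each cell was thinned to 20000 UMIs, 84.3% of cells in DMSO 24 h had one (81.9% to 86.4%), 55.9% in paclitaxel 24 h (52.2% to 59.5%), 48.0% in DMSO 72 h (44.5% to 51.6%) and 28.1% in paclitaxel 72 h (24.1% to 32.3%). Unthinned, the shares were 92.1%, 72.9%, 61.6% and 45.8% in the same order, and levels by class below use this unthinned call unless thinning is named. Thinning left out 21, 26, 17 and 39 shallower cells. The level of MKI67 over all cells was 161, 89.4, 69.6 and 42.8 CPM in library order, and that of TOP2A, another gene of cycling cells, 180, 129, 110 and 72.0 CPM. No cell type that lacks MKI67 is known to be in these libraries, so the share that free RNA could give was not measured.

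Cells with MKI67 carried more RNA of the module in every library. The summed level of the 33 members was 1768 CPM in cells with and 510 CPM in cells without MKI67 in DMSO 24 h, and 1470 against 459 CPM in paclitaxel 24 h. In DMSO 72 h it was 1183 against 347 CPM, and in paclitaxel 72 h 1261 against 471 CPM. Cells with MKI67 held 98.4%, 93.8%, 88.8% and 79.0% of the members' UMIs in library order, beside 94.7%, 82.5%, 70.0% and 58.4% of all UMIs. They were also deeper, with medians of 61178, 72576, 64954 and 81501 UMIs against 43308, 42237, 45712 and 43707 UMIs in cells without.

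Member by member, 25 of 30 were at least 1.5-fold higher in cells with MKI67 in DMSO 24 h (9.14% of all genes), 23 of 28 in paclitaxel 24 h (7.22%), 21 of 25 in DMSO 72 h (6.86%) and 21 of 27 in paclitaxel 72 h (4.87%). The median relative log2 ratios of cells with over cells without were 1.94, 2.01, 2.10 and 1.77 in library order. Calling the class after thinning to 20000 UMIs gave medians of 0.83, 1.18, 1.55 and 1.5, each lower than before, while the counts of members past 1.5-fold were 20 to 23.

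SPC25 was at 41.6 CPM in cells with and 3.40 CPM in cells without MKI67 in DMSO 24 h, a relative log2 ratio of 3.44 (2.66 to 4.35). In DMSO 72 h it was at 23.5 against 1.56 CPM, or 3.86 (3.26 to 4.52), and in the paclitaxel libraries at 3.29 and 2.93. NUF2 lay between 3.06 and 3.50 in the 4 libraries, CENPF between 3.10 and 3.61 and CENPA between 2.47 and 3.54. These 4 genes, of the NDC80 complex, the outer kinetochore and the centromere itself, had the highest medians over the 4 libraries. CENPE differed between libraries, with 3.67 in DMSO 72 h and 1.71 (1.36 to 2.07) in paclitaxel 72 h, where cells without MKI67 held 5.52 CPM against 1.96 CPM in DMSO 72 h.

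At the other end stood genes whose relative ratio between the classes was short of 1.5-fold in all 4 libraries. MAD1L1 had relative log2 ratios of -0.28 to 0.15, PMF1 of -0.02 to 0.34, NSL1 of 0.01 to 0.54, CENPC of -0.08 to 0.52 and MIS12 of 0.33 to 0.42 in the 4 libraries. MIS12 in paclitaxel 72 h, for example, was at 34.5 CPM in cells with and 27.1 CPM in cells without MKI67. SKA2 and BUB3 lay near the limit, at 0.55 to 0.68 and 0.56 to 0.92. By the median over the 4 libraries, 8 members were under a relative log2 ratio of 1, 9 between 1 and 2 and 16 at 2 or more. The complexes differed in this: the median was 3.14 over the 4 genes of the NDC80 complex, 2.37 over the 3 SKA genes, 2.18 over the 8 checkpoint genes, 1.47 over the 10 inner centromere genes and 0.31 over the 4 genes of the MIS12 complex. In the 28 members whose promoters were searched, TTTGAA was found in 12 of 15 at 2 or more, in 2 of 6 between 1 and 2 and in 2 of 7 under 1.

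**Figure D3:**
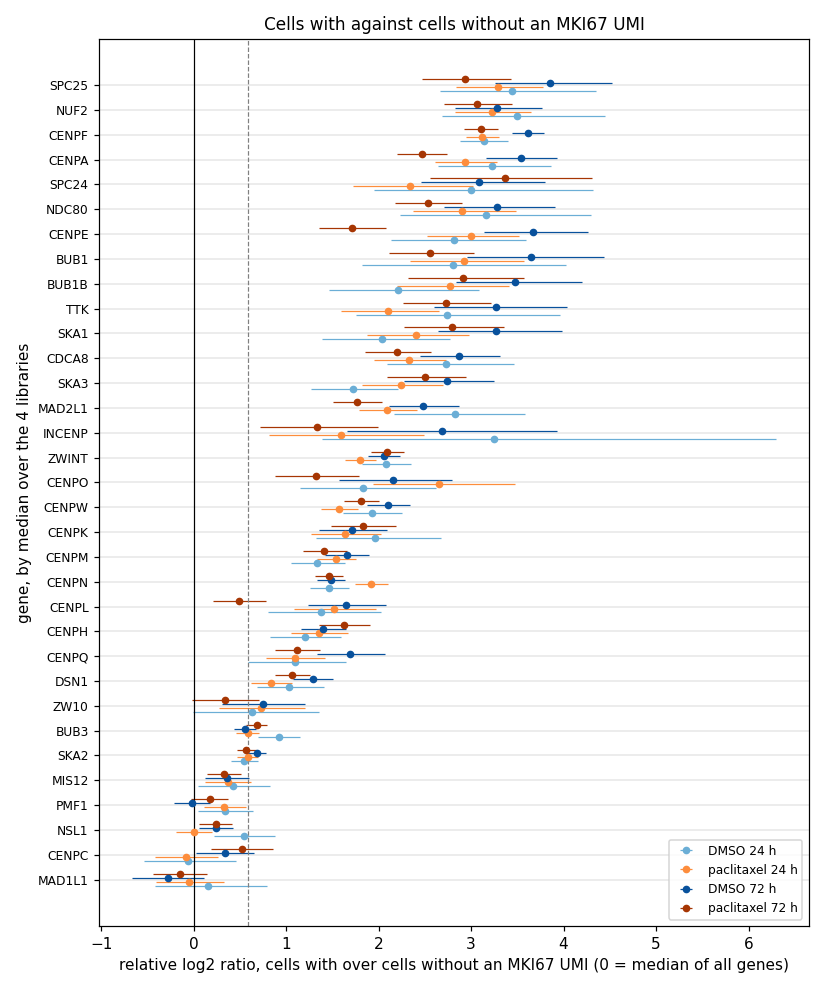
Relative log2 ratio of each gene between cells with and cells without an MKI67 UMI in each library, with exact 95% intervals, ordered by the median; 0 is the median of all genes and the dashed line marks 1.5-fold. SPC25, NUF2, CENPF and CENPA lead the list, while MAD1L1, CENPC, NSL1, PMF1 and MIS12 lie left of the dashed line in all 4 libraries.

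Within cells with MKI67 the differences with time were smaller at the median. From 24 h to 72 h in DMSO the median of 30 members was -0.18, with 5 lower (CENPO, SKA3, CENPM, CENPW and CENPN) and 0 higher, against 7.98% lower and 11.5% higher among all genes. In paclitaxel with time the median of 30 members was -0.22, with 5 lower (SPC25, CENPM, CENPE, CENPF and BUB1B) and 0 higher, against 3.08% and 6.67%. Among members compared in both ways, 28 of 29 were nearer 0 within these cells than over all cells with time in DMSO, and 22 of 27 with time in paclitaxel. For the drug, 17 of 29 were nearer 0 at 24 h and 16 of 26 at 72 h. The share of all genes nearer 0 within these cells was not computed, so these counts cannot be read as particular to the module.

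For paclitaxel over DMSO at 24 h within cells with MKI67, the median of 29 members was -0.07, with 0 lower and 0 higher, against 0.83% and 5.47% of all genes. NUF2 was the highest there, at 52.0 CPM in paclitaxel and 39.9 CPM in DMSO, a relative log2 ratio of 0.51 (0.43 to 0.59), and SKA3 the lowest, at -0.58. At 72 h the median was -0.05, with CENPF, CENPE and SPC24 lower and MIS12 higher, against 6.62% lower and 10.3% higher among all genes. CENPF was at 162 CPM in cells with MKI67 in paclitaxel 72 h and at 249 CPM in those of DMSO 72 h, a relative log2 ratio of -0.89 (-0.95 to -0.83), beside -1.10 over all cells. CENPE was at 18.4 against 26.1 CPM, or -0.78 (-0.96 to -0.60), beside -0.81 over all cells. MIS12 was at 34.5 against 17.9 CPM, or 0.68, beside 0.65 over all cells.

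With time in paclitaxel, CENPF went from -1.23 over all cells to -0.82 within cells with MKI67, CENPE from -1.16 to -0.91, ZWINT from -0.85 to -0.49 and NUF2 from -0.88 to -0.47. MIS12 in that comparison was at 0.43 over all cells and at 0.50 within. Cells without MKI67 held fewer UMIs of the module, and 12 members reached 10 CPM there. With time their median was -0.38 in DMSO and -0.10 in paclitaxel, and CENPM was the lowest in both, at -1.06 and -0.87.

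**Figure D4:**
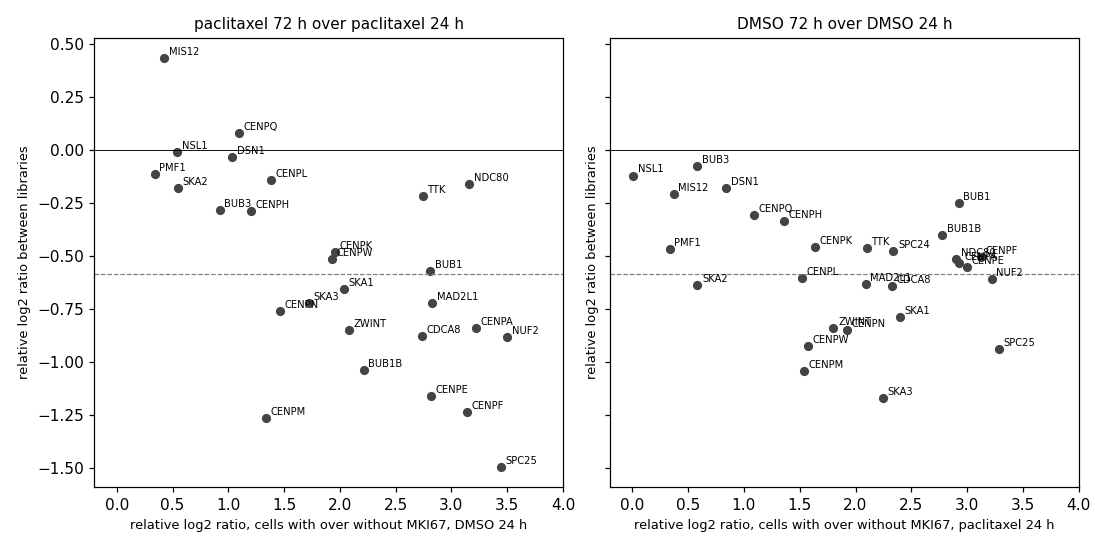
For each gene, the relative log2 ratio between cells with and without MKI67 in a library outside the comparison (DMSO 24 h on the left, paclitaxel 24 h on the right; horizontal axis) against the relative log2 ratio of 72 h over 24 h (vertical axis), in paclitaxel (left, 27 genes) and in DMSO (right, 28 genes). On the left MIS12 lies at the top and SPC25 at the bottom; NDC80 and TTK lie high for genes so far to the right.

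Across members, the split by MKI67 in DMSO 24 h and the ratio with time in paclitaxel had Pearson's r of -0.66 and Spearman's rho of -0.68 (27 genes), where all 7804 genes had a rho of -0.42. For the split in paclitaxel 24 h and the ratio with time in DMSO, r was -0.38 and rho -0.36 over 28 members, where all 7830 genes had a rho of -0.64. These are correlations across genes, which are not independent replicates and share the libraries' totals, and 8 were computed. The others with time had a rho of -0.70 (split in DMSO 72 h, ratio in paclitaxel) and -0.35 (split in paclitaxel 72 h, ratio in DMSO). For paclitaxel over DMSO at 72 h rho was -0.28 with the split in DMSO 24 h and -0.42 with that in paclitaxel 24 h, where all genes had -0.03 in both. For paclitaxel over DMSO at 24 h the members' rho had the other sign, 0.22 with the split in DMSO 72 h and 0.14 with that in paclitaxel 72 h, where all genes had -0.38 and -0.28. NDC80 and TTK show what the coefficient leaves out: in DMSO 24 h they were 3.16 and 2.74 higher in cells with MKI67 on the relative log2 scale, yet their ratios with time in paclitaxel were -0.16 and -0.21.

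Cells were also set apart within each library by 2 lists that share no gene with the module, 18 genes of S phase and 18 of mitosis. Cells in the top 20% of the library by the share of UMIs in the mitosis list were compared with those in the top 20% by the S phase list, and cells in both (5, 16, 36 and 54) were left out. These are ranges of a score, not cell types, and they left 215, 139, 121 and 50 cells on each side in library order. Of 24 members with enough UMIs in all libraries, 9 were at least 1.5-fold higher in the mitosis-high cells in all 4, where 1.52% of 7351 genes were. Those 9 were BUB1, BUB3, MAD2L1, NDC80, NUF2, CENPA, CENPE, CENPF and CDCA8. The count in the other direction was 0 of 24, where 1.1% of genes were.

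CENPE led with relative log2 ratios of 2.49 to 3.12 in the 4 libraries, followed by CENPA at 1.96 to 2.64 and CENPF at 1.65 to 1.89. BUB3 was at 0.70 to 0.75, beside 0.56 to 0.92 between cells with and without MKI67. CENPK, CENPQ, DSN1, CENPM and MIS12 had negative values, toward the S-phase-high cells, in every library, without passing 1.5-fold in all 4. They were at -0.94 to -0.13, -0.72 to -0.33, -0.73 to -0.10, -0.85 to -0.41 and -0.86 to -0.05. The intervals spanned both signs for CENPK, CENPQ and DSN1 in paclitaxel 72 h, and for MIS12 in paclitaxel 24 h and DMSO 72 h. The MIS12 value in paclitaxel 72 h was -0.86 (-1.21 to -0.52). With time in paclitaxel, the 9 mitosis-high members had a median of -0.84 with 6 lower. The other 15 had a median of -0.48 with 6 lower, where 4.93% of all genes were lower. With time in DMSO the medians were -0.53 with 3 lower and -0.63 with 8 lower, where 9.89% of all genes were lower. The shares among all genes high in the mitosis-high cells were not computed, and a difference between the sets of members was not tested.

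Counted cell by cell after thinning to 20000 UMIs, the median cell held 32 UMIs of the 33 members in DMSO 24 h, 21 in paclitaxel 24 h, 13 in DMSO 72 h and 12 in paclitaxel 72 h. A cell with 20 or more such UMIs was found for 82.3% of cells in DMSO 24 h (79.9% to 84.5%), 52.8% in paclitaxel 24 h (49.2% to 56.4%), 36.3% in DMSO 72 h (32.9% to 39.8%) and 30.6% in paclitaxel 72 h (26.5% to 34.9%). Among cells with an MKI67 UMI after thinning the medians were 34, 29, 23.5 and 26 UMIs, and among cells without, 15, 9, 7 and 10. In cells with MKI67 the 10th and 90th percentiles were 20 and 54 UMIs in DMSO 24 h, 10 and 52 in paclitaxel 24 h, 9 and 47.3 in DMSO 72 h and 10 and 52 in paclitaxel 72 h. The lower end of DMSO 24 h thus stood above those of the other 3 libraries. A cell with none of the 33 genes was found in DMSO 72 h alone, for 4 of 766 cells (0.522%, 0.142% to 1.33%); the other libraries had 0 such cells, with exact upper bounds of 0.341% in DMSO 24 h, 0.491% in paclitaxel 24 h and 0.764% in paclitaxel 72 h.

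**Figure D5:**
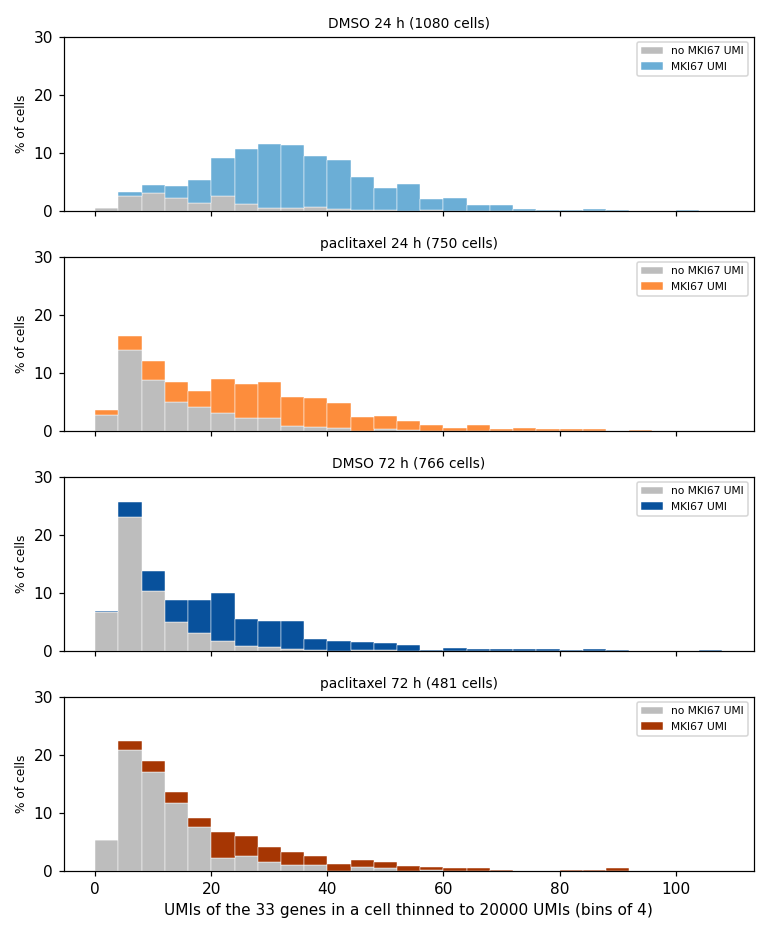
Share of cells (vertical axis, %) by the number of UMIs of the 33 genes in a cell thinned to 20000 UMIs (horizontal axis, bins of 4), stacked by whether the cell held an MKI67 UMI after thinning. The bulk of cells lies around 32 UMIs in DMSO 24 h and around 12 UMIs in paclitaxel 72 h, where most cells hold no MKI67 UMI.

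Other genes of the centromere, kinetochore and checkpoint were taken from a list of 41 old and new symbols, of which 34 were in the tables. With time, 16 of 28 compared were at least 1.5-fold lower and 0 higher in DMSO, with a median of -0.66, where 9.89% of all genes were lower and 13% higher. In paclitaxel 15 of 28 were lower and 1 higher with time, with a median of -0.62, where 4.93% of all genes were lower and 7.95% higher. With the drug, 0 of 29 were past 1.5-fold at 24 h (median -0.18), where 1.26% of all genes were lower and 6.3% higher. At 72 h 4 of 28 were lower and 1 higher (median -0.12), where 7.93% of all genes were lower and 11.1% higher. The lowest with time were APITD1, which encodes CENPS (-1.25 in DMSO and -1.22 in paclitaxel), STRA13, which encodes CENPX (-1.15 in DMSO), and BIRC5, the survivin subunit of the passenger complex (-1.18 in paclitaxel).

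At 72 h the lowest for paclitaxel over DMSO were CASC5, the KNL1 scaffold that carries the BUB proteins (-0.83), and CENPB, which binds centromeric DNA (-0.79). At 24 h they were APITD1 (-0.58) and SPDL1 (-0.55), the dynein adaptor spindly. The highest was MAD2L1BP, the p31comet protein that takes MAD2 out of the checkpoint complex, at 15.9 CPM in DMSO 24 h, 19.5 in paclitaxel 24 h, 13.5 in DMSO 72 h and 36.1 in paclitaxel 72 h. Its relative log2 ratio of paclitaxel over DMSO was 0.43 at 24 h and 1.14 at 72 h, and its ratio with time in paclitaxel was 0.76. CDC20, the activator that the checkpoint holds back, followed with 0.54 for the drug at 72 h. KNTC1 (0.16 for paclitaxel over DMSO at 24 h), CENPT (0.33) and CLASP1 (0.15) with time in DMSO, and NDEL1 (0.35) with time in paclitaxel were the remaining highest genes by rule. As in the module, most genes of this wider list were lower at 72 h, and the member of the list that stood highest, MAD2L1BP, did so in paclitaxel 72 h.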

How the data were processed

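Single cells of 4 libraries, 1 per group, were analysed. The deposited values are raw UMI counts per gene symbol and barcode. Per the submitters' processing notes, Cell Ranger 2.0 and GRCh38 were used; the annotation, strand setting, cell selection and gene filter are not given in the sources used here. Every listed gene had UMIs in at least 12 and 8 cells of the DMSO and paclitaxel tables at 24 h and in at least 8 and 6 cells of those at 72 h. Every line named a gene. The libraries were not replicated, so no count test was run and no p-value was computed.

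Barcodes with at least 500 genes and under 20% MT- UMIs were kept (3180 of 3194). Doublets were not called; leaving out the 5% of cells with most UMIs was an alternative. Libraries shared 4 barcodes (DMSO 24 h and paclitaxel 24 h) and 3 (DMSO 24 h and DMSO 72 h). UMIs were summed per library or cell class and scaled to CPM, and ratios were centred on the median over genes that averaged 10 CPM or more in the pair compared. A gene was counted as lower or higher past 1.5-fold (0.58 on the log2 scale). Ratio and share intervals are exact (Clopper-Pearson), CPM intervals exact Poisson, all at 95%. The ratio step alone was tested on simulated counts. Thinning used fixed seeds. Tools were Python 3.11.15, numpy 2.4.6, pandas 2.3.3, scipy 1.17.1, matplotlib 3.10.9 and, for TMM factors alone, R 4.3.3 with edgeR 4.0.16.

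The members and lists were chosen with earlier results of these data known. By rule, every member is named, those averaging 10 CPM or more with all 4 values, besides MKI67, TOP2A and, from the wider list, the 2 highest and 2 lowest genes of each comparison; overlapping genes were added. Alternatives covered scaling, weighting of cells, the low-count minimum, the cell filter, the MKI67 class and the thinning depth.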

Additional observations from a re-analysis of the deposited data

How the results depend on the processing

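No paired analysis was possible because each group was 1 library. Over the 4 comparisons of libraries, 31 calls of members past 1.5-fold were made, and none changed sign under any alternative; 31 of 31 stayed past 1.5-fold with TMM factors, median-of-ratios factors, totals without ribosomal and MT- genes, all barcodes, under 10% MT- UMIs, a minimum of 2 CPM or none. The exceptions were CENPE and SKA1 with nothing subtracted (29 of 31), NUF2 with each cell weighted alike (30 of 31) or without the 5% of cells with most UMIs (30 of 31), and SKA2 with a minimum of 50 CPM (8 of 9 that could be compared). The cause of each change below was not tested, except that a higher or lower minimum changes which members are compared. Shares of all genes under these alternatives are not given, so the counts below cannot be set beside the shares above.

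With nothing subtracted, the median of members was -0.34 for paclitaxel over DMSO at 24 h with 6 lower, 0.19 at 72 h with 1 lower and 3 higher, -0.82 with time in DMSO with 24 lower, and -0.44 with time in paclitaxel. With TMM factors, 4 members were lower for paclitaxel over DMSO at 24 h, and with time in DMSO 21 were lower, 1 lay above the module's median and that median was -0.66; median-of-ratios factors gave 4, 21, 1 and -0.67. Totals without ribosomal and MT- genes left 2 members below the module's median for the drug at 24 h, 4 lower, 2 higher and 4 below the median at 72 h, and 1 above it with time in DMSO.

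With each cell weighted alike, the drug at 24 h gave 5 lower and a median of -0.36, the drug at 72 h 4 lower, 2 higher and a median of -0.23, time in DMSO 1 above the module's median, and time in paclitaxel 2 below and 5 above. Without the 5% of cells with most UMIs, the drug gave 4 lower at 24 h and 4 at 72 h, time in DMSO 1 above the module's median and time in paclitaxel 2 below and 5 above. Under 10% MT- UMIs, 1 member lay above the median for the drug at 72 h.

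A minimum of 2 CPM left 2 below the module's median for the drug at 24 h, 4 lower, 2 higher and 4 below it at 72 h, and 1 above it with time in DMSO. No minimum gave 2 below at 24 h, 5 lower, 2 higher and 4 below at 72 h, and with time in DMSO 22 lower, 1 above and a median of -0.66. A minimum of 50 CPM gave 0 lower and a median of -0.37 for the drug at 24 h, and 1 lower, 0 higher, 1 below, 0 above and a median of -0.43 at 72 h. With time it gave 4 lower, 0 below, 1 above and a median of -0.71 in DMSO, and 3 lower, 1 below and 0 above in paclitaxel. Taking members that averaged 10 CPM or more over all 4 libraries, chosen after seeing the data, gave 1 lower for the drug at 24 h and 4 lower at 72 h.

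For cells with over cells without MKI67, the class called after thinning to 20000 UMIs gave medians of 0.83 in DMSO 24 h, 1.18 in paclitaxel 24 h, 1.55 in DMSO 72 h and 1.5 in paclitaxel 72 h. TOP2A in place of MKI67 gave 1.36 in DMSO 24 h, and at least 3 MKI67 UMIs against 0 gave 2.11 in paclitaxel 72 h. Within cells with MKI67 called after thinning, 1 member was higher for the drug at 24 h and 3 at 72 h with a median of 0.025, and 3 members were lower with time in DMSO and 3 in paclitaxel. Within these cells and with nothing subtracted, the drug at 24 h gave 3 lower and a median of -0.20, the drug at 72 h 1 lower, 4 higher and a median of 0.22, time in DMSO 11 lower and a median of -0.45, and time in paclitaxel 1 higher. The share of cells with MKI67 was 88.6%, 64.8%, 53.8% and 40.9% when thinned to 30000 UMIs, and, chosen after seeing the data, 92.1%, 72.9%, 61.6% and 45.8% unthinned, in the library order used above.

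Cells without MKI67 in DMSO 24 h were 87, so their levels rest on few cells.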
